A study of Mus musculus with 18 samples.

Results

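The genes described here code for the Rh complex and other blood group antigens of the red cell surface: Rhd, Rhag, Icam4, Gypc, Kel, Xk, Ermap, Aqp1 and Slc14a1. Each was taken from the array annotation by its symbol, from probe sets assigned to 1 gene, and the probe set with the highest mean over all arrays stood for the gene. All 9 of the 9 genes were found among the 18194 genes with such a probe set. Mouse G1E-ER4 cells were measured on 18 Affymetrix arrays at 6 times (0, 3, 7, 14, 21 and 30 h), with 3 arrays a time and estradiol at 20 nM. This cultured line resembles erythroid progenitors. It lacks its own functional Gata1 and carries GATA1 joined to the ligand-binding part of the estrogen receptor, which holds for every group, 0 h included. The 0 h arrays hold cells taken before estradiol was added. The time course asked how expression changes as GATA1 activity returns. All groups come from 1 line, and no arrays of cells kept for the same hours without estradiol were analysed here, so estradiol and time in culture cannot be told apart.

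Blood group antigens are carried by proteins that do ordinary work in the red cell membrane. The Rh protein and the Rh-associated glycoprotein sit together in a complex that binds band 3 and ankyrin and so reaches the spectrin skeleton, while glycophorin C and the Kell and XK pair belong to a second, junctional set of membrane anchors. Many of these proteins are made during erythroid maturation, in part under GATA1 and its partner KLF1. Some, such as the water channel AQP1 and the urea transporter SLC14A1, also have roles in kidney and other tissues.

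Because this line carries GATA1 joined to a part of the estrogen receptor, the bases just upstream of the start sites are shown first. They come from the RefSeq promoter table (mouse, GRCm38.p6), which held 7 of the 9 genes. A GATA match was AGATAA, or the same ending in G (AGATAG), or the forms that open with T (TGATAA and, ending in G, TGATAG), on either strand. Capitals mark the matches. In the 100 bases before the start site, 5 of the 7 genes held a match (71.4%), against 10.4% of all 32851 promoters in the table. Over the whole 300 bases of each entry the same 5 genes held a match, against 29.8% of all promoters. Xk and Aqp1 held none of these letters in that window.
Rhd: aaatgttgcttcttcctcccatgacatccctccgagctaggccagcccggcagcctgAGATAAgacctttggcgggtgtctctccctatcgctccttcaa
Icam4: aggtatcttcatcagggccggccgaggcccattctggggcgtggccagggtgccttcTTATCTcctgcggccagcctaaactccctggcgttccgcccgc
Kel: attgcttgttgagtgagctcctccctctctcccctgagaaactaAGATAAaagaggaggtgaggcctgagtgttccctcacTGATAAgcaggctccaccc
Ermap: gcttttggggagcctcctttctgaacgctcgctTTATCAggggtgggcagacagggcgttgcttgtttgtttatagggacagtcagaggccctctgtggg
Rhag: agtcctctgctcTTATCAacactatacagc
The windows are chr4:134864436-134864535 on the plus strand for Rhd, chr9:21029332-21029431 on the plus strand for Icam4, chr6:41704326-41704425 on the minus strand for Kel and chr4:119189996-119190095 on the minus strand for Ermap. For Rhag 30 bases around the match are shown, chr17:40811106-40811135 on the plus strand. The first base of each match lay at -43 for Rhd and Icam4, -31 for Rhag, -67 for Ermap, and -56 and -19 for Kel, counted from the start site as 0. The RefSeq gene table also holds a start further upstream, by 50 bases for Rhag, 18 for Ermap and 9 for Kel. Counted from that outer start, the match of Rhag lies inside the gene and not before it. The matches of Ermap and Kel still lie before theirs. A second motif, CCNCNCCC on either strand, the kind of letters bound by KLF factors, was held by Icam4, Xk and Aqp1 in the 100 bases (3 of 7, against 31.4% of all promoters), with no overlap of the GATA match in Icam4. A match is a description of the letters, and binding was not measured here.

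By 30 h, 6 of the 9 genes were higher than at 0 h: Icam4, Rhd, Gypc, Kel, Xk and Ermap. For Xk this rests on its brighter probe set. Its other probe set changed by -0.41 and was not called (limma adjusted p = 0.0925). Slc14a1 was lower, and neither Rhag nor Aqp1 was called. A gene was called at a limma adjusted p under 0.05 (Benjamini-Hochberg over the 12720 genes tested), and at 30 h 36.6% of all tested genes were called higher and 33% lower. The share of the 9 genes called, 7 of 9, therefore stood against 69.5% of all tested genes called in either direction. That share is near the background. By size of change, 4 of them (Icam4, Rhd, Gypc and Kel) rose at least 2-fold, where 9.16% of tested genes did. At 3, 7, 14 and 21 h the genes called at least 2-fold higher were 1, 2, 3 and 4 of the 9 (backgrounds 0.503%, 1.62%, 3.17% and 6.12%), and between neighbouring times 0 (0.487%, 0.377%, 0.354% and 0.755%). The 0 and 30 h arrays did not overlap for 8 of the 9, against 72.3% of tested genes. The median change of the 9 genes was 0.67 on the log2 scale, against 0.09 for all tested genes. With arrays scaled on their bacterial and phage hybridisation controls, Rhag was also called, for 7 higher, and the background moved to 39.3% higher and 20.3% lower.

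**Figure D1:**
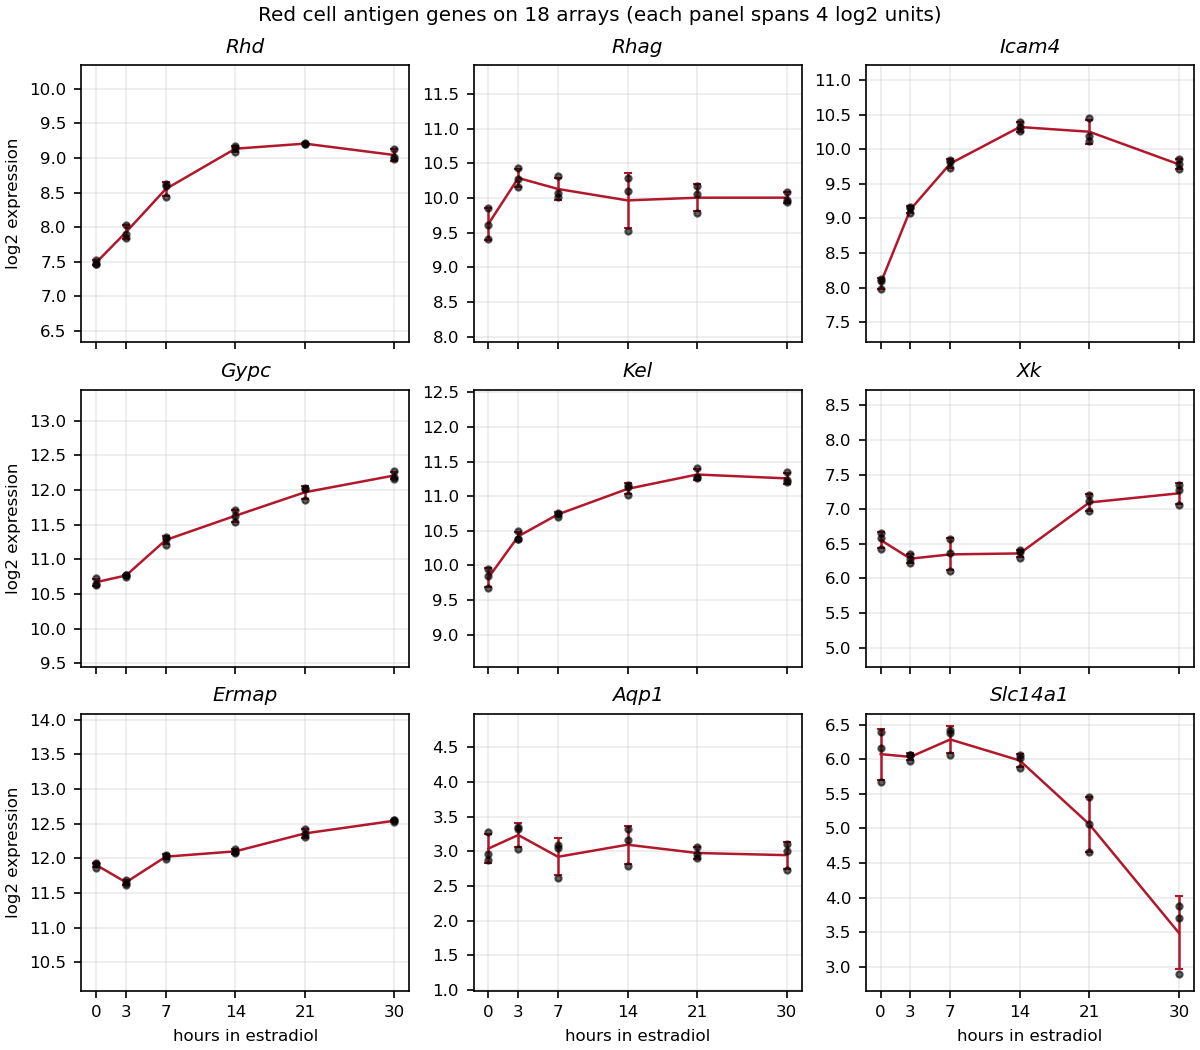
Log2 expression of the 9 genes (vertical axis, 4 log2 units in every panel) against hours in estradiol (horizontal axis). Points are single arrays, 3 at each time, and lines join the means with SD bars. Rhd, Icam4, Gypc and Kel climb well beyond their spread. Rhag rises less, by 0.66 at 3 h, Aqp1 stays near the low end, and Slc14a1 drops after 14 h.

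The genes did not start together. At 3 h, Rhd, Rhag, Icam4 and Kel were higher and Ermap lower than at 0 h, where 11.2% of tested genes were called higher and 14.7% lower. At 7 h, 5 were higher (Rhd, Rhag, Icam4, Gypc and Kel; background 15.3%) and 0 lower (background 16.3%), and without 7 h replicate 2 Xk was called lower. Control scaling called 3 of these 5, Rhd, Icam4 and Kel, with a background of 4.31%. At 14 h, 5 were higher (Rhd, Icam4, Gypc, Kel and Ermap; background 22.2%) and 0 lower (22.7%), and control scaling put Rhag in the place of Ermap. At 21 h, the same 6 genes as at 30 h were higher (background 31.4%) and Slc14a1 was lower (28.6%).

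**Figure D2:**
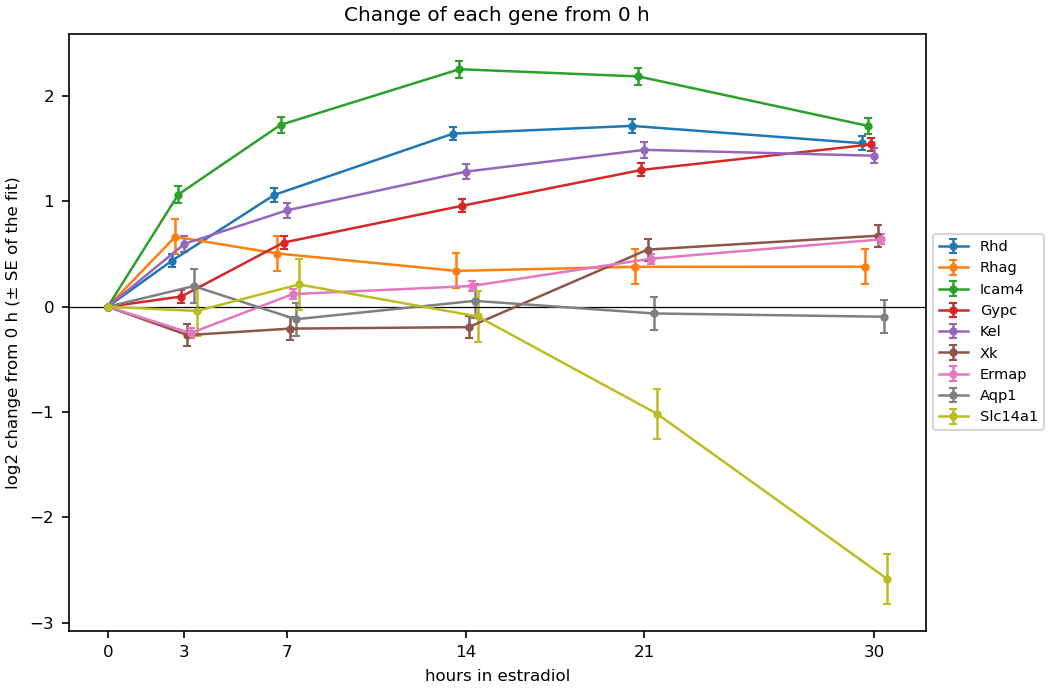
Log2 change from 0 h (vertical axis) of each gene against hours in estradiol (horizontal axis), with the SE of the fit as bars. Points are shifted sideways by less than 1 h so that bars do not hide each other. Icam4 reaches 2.25 at 14 h, Rhd and Kel level off, Gypc goes on rising to 1.54 at 30 h, and Slc14a1 reaches -2.58.

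Rhd codes for the carrier of the Rh antigens, and the mouse has this single gene where humans have RHD and RHCE. Its probe set, 1417049_at, read 7.47, 7.47 and 7.53 on the log2 scale on the 0 h arrays and 8.98, 9.01 and 9.13 on the 30 h arrays. The groups lay far apart and the spread within each was small. In time order the means were 7.49 ± 0.033 (SD, n = 3), 7.93 ± 0.099, 8.55 ± 0.10, 9.13 ± 0.045, 9.21 ± 0.0045 and 9.04 ± 0.082. The rise was thus over by 14 h: the steps of 0.44, 0.62 and 0.58 to 3, 7 and 14 h were each called, and that from 14 to 21 h was not (0.07, limma adjusted p = 0.430). The last step, -0.16 from 21 to 30 h, missed the threshold (adjusted p = 0.0555) and its sign rested on the scaling: it was 0.025 with control scaling (adjusted p = 0.940). It passed in 4 of 16 alternatives, for example without 30 h replicate 3 (adjusted p = 0.0297). Over the whole course Rhd rose 2.93-fold (log2 1.55, SE 0.065, adjusted p = 4.04e-12). With control scaling the 3 h change was as large, 0.54, but not called (adjusted p = 0.10).

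Rhag codes for the Rh-associated glycoprotein, an ammonia and gas channel that Rh protein needs to reach the surface. Its probe set, 1419014_at, read 9.41, 9.61 and 9.86 at 0 h, 10.17, 10.28 and 10.43 at 3 h, and 9.98, 10.09 and 9.95 at 30 h. The 3 h and the 30 h arrays all lay above the 0 h arrays. The mean rose by 0.66 at 3 h (SE 0.17, adjusted p = 0.00797), or 1.58-fold, and that was its highest level. At 7 h it was 0.51 above 0 h (adjusted p = 0.0304). That call was lost with control scaling and when any of 0 h replicate 1, 0 h replicate 2, 7 h replicate 2 or 7 h replicate 3 was left out (adjusted p = 0.134, 0.0728, 0.0520 and 0.125). The 14 h arrays spread most, at 10.10, 10.28 and 9.52, and the 14 h change of 0.34 was not called (adjusted p = 0.114), though without 14 h replicate 3 it was 0.56 (adjusted p = 0.00455). At 21 and 30 h the changes were both 0.38 (adjusted p = 0.0620 and 0.0541). The 30 h change was called with control scaling (0.58, adjusted p = 0.00903), with only the 0 and 30 h arrays fitted (adjusted p = 0.0255) and without 0 h replicate 3 (0.50, adjusted p = 0.0240). Equal array medians, the 60th percentile filter and the mean of probe sets also gave a call at 30 h (adjusted p = 0.0462, 0.0401 and 0.0479). The 21 h change was called with equal medians and with the 60th percentile filter (adjusted p = 0.0426 and 0.0440). It was also called without 0 h replicate 3 or 21 h replicate 1 (adjusted p = 0.0281 and 0.0319). No step after 3 h was called.

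The 2 subunits of the Rh core therefore gave unlike values. From 0 to 30 h the change of Rhd exceeded that of Rhag by 1.17 on the log2 scale (SE 0.14), with no overlap of the arrays. An exact two-sided permutation test gave p = 0.10, the smallest that 3 arrays against 3 allow, and 0.10 after adjustment over the 4 gene pairs compared. Across the 18 arrays Pearson's r between Rhd and Rhag was 0.17, whereas Rhd had r = 0.98 with Kel and 0.95 with Icam4. These arrays share the time course, so the values describe likeness of course and carry no test. The r of Rhag is also limited by its spread within a time, with an SD of up to 0.40 beside time means that ranged over 0.66.

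Icam4, the Landsteiner-Wiener antigen, is an adhesion molecule that joins the Rh complex and binds integrins on macrophages and platelets. It had the largest rise of the 9 genes at every time from 3 h to 30 h. Its probe set, 1422930_at, read 8.12, 7.97 and 8.10 at 0 h, 9.15, 9.16 and 9.08 at 3 h, and 10.39, 10.26 and 10.32 at 14 h. No array of one of these times came near those of another. The change from 0 h was 1.07 at 3 h, or 2.09-fold (SE 0.079, adjusted p = 1.05e-07), 1.73 at 7 h and 2.25 at 14 h, or 4.77-fold. The 3 h rise of at least 2-fold was shared by 0.503% of tested genes. At 30 h the arrays read 9.71, 9.86 and 9.78, a fall of 0.47 from 21 h (adjusted p = 0.000165), and the mean was 9.78 ± 0.074, beside 9.79 ± 0.063 at 7 h. With control scaling that last step was -0.28 and not called (adjusted p = 0.320). At 30 h Icam4 remained 3.28-fold above 0 h (log2 1.72, adjusted p = 1.21e-11).

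Gypc codes for glycophorin C, which carries the Gerbich antigens and anchors protein 4.1 and MPP1 at the junctions of the skeleton. The probe set, 1423878_at, read 10.73, 10.63 and 10.65 at 0 h and 10.77, 10.75 and 10.77 at 3 h, a change of 0.10 that was not called (adjusted p = 0.279). By 30 h the arrays read 12.17, 12.27 and 12.19. Every step after 3 h was called higher, with gains of 0.51, 0.35, 0.34 and 0.24, so that means rose from 10.77 ± 0.014 at 3 h to 11.28 ± 0.059, 11.63 ± 0.084, 11.97 ± 0.096 and 12.21 ± 0.053. The last gain was not called with only the 21 and 30 h arrays fitted (adjusted p = 0.0572). With control scaling only the step from 7 to 14 h was called. Over the whole course Gypc rose 2.91-fold (log2 1.54, SE 0.062, adjusted p = 2.33e-12).

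Kel codes for the Kell antigen, a zinc endopeptidase that processes endothelins, and is joined by a disulfide bond to XK, a membrane protein of the lipid scramblase family. Kel, read by 1449057_at, stood at 9.85, 9.68 and 9.95 at 0 h, 10.38, 10.50 and 10.38 at 3 h, and 11.23, 11.20 and 11.34 at 30 h. All 3 h and 30 h arrays were above all 0 h arrays. It rose by 0.60 at 3 h (SE 0.073, adjusted p = 2.00e-05), by 0.91 at 7 h, by 1.28 at 14 h and by 1.49 at 21 h, and was 2.70-fold above 0 h at 30 h (log2 1.43, adjusted p = 4.11e-11). The step from 14 to 21 h, 0.21 (adjusted p = 0.0391), was not called without 14 h replicate 1, 14 h replicate 3, 21 h replicate 1 or 21 h replicate 2 (adjusted p = 0.0563 to 0.148), and was -0.01 with control scaling. The arrays of 21 and 30 h overlapped.

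Xk gave no such early rise, and its probe sets went apart. The brighter one, 1453866_a_at, read 6.65, 6.59 and 6.43 at 0 h, 6.22, 6.35 and 6.28 at 3 h, 7.21, 7.11 and 6.97 at 21 h, and 7.27, 7.07 and 7.35 at 30 h. No change from 0 h was called up to 14 h (-0.27, -0.21 and -0.19, adjusted p = 0.0742, 0.156 and 0.155), although the 3 h change was called with only the 0 and 3 h arrays fitted (adjusted p = 0.0358). It gained 0.74 between 14 and 21 h (SE 0.11, adjusted p = 7.35e-05), to a rise of 0.67 at 30 h, or 1.60-fold (adjusted p = 3.05e-05). With control scaling the gain from 14 to 21 h was 0.52 and was not called (adjusted p = 0.0654). The dimmer probe set, 1450189_at, read 4.69, 5.60 and 4.65 at 0 h, 4.07, 4.19 and 4.13 at 21 h and 4.62, 4.84 and 4.25 at 30 h. It moved the opposite way at 21 h, by -0.85 from 0 h (adjusted p = 0.00226 with every probe set tested on its own) and by -0.60 from 14 h (adjusted p = 0.0401), and was not called at 30 h (-0.41, adjusted p = 0.0925). The mean of both gave 0.13 at 30 h (adjusted p = 0.293). Which transcripts of Xk each probe set reads was not analysed here, and the direction for the gene rests on the probe set chosen. The change of Kel exceeded that of Xk, on the brighter probe set, by 0.76 (SE 0.14; exact permutation p = 0.10, adjusted 0.10, n = 3 arrays at each time).

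**Figure D3:**
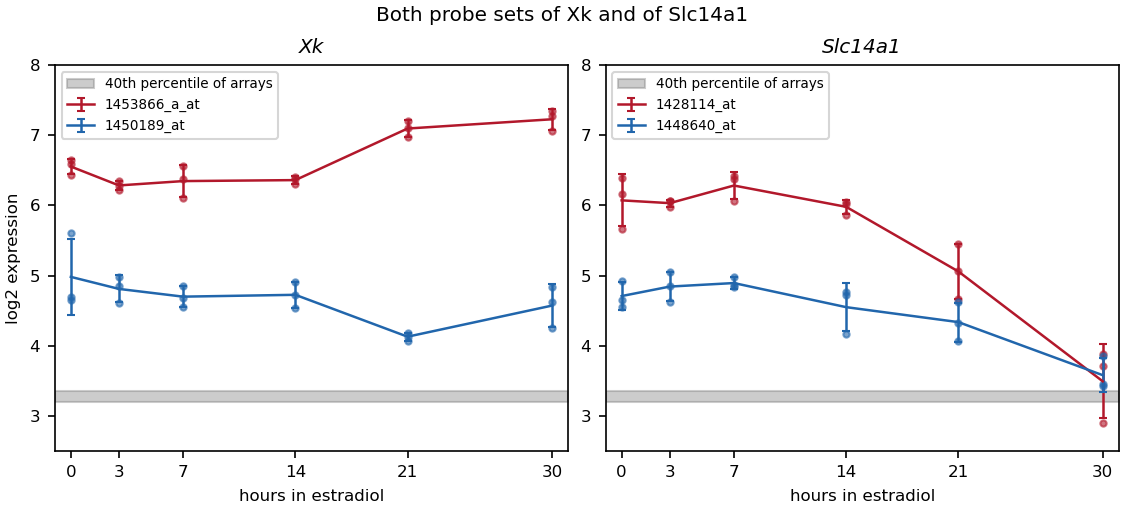
Log2 expression (vertical axis) of both probe sets of Xk (left) and of Slc14a1 (right) against hours in estradiol (horizontal axis); points are arrays, lines join means with SD bars, and the grey band spans the 40th percentile of the 18 arrays, 3.20 to 3.35. The probe sets of Xk part after 14 h, while both probe sets of Slc14a1 decline toward the band, with means of 3.49 and 3.58 at 30 h that lie above it.

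Ermap codes for the Scianna antigen, a butyrophilin-like adhesion protein of erythroid cells. It was bright from the start: its probe set, 1418909_at, read 11.93, 11.92 and 11.87 at 0 h, 11.65, 11.69 and 11.62 at 3 h, and 12.53, 12.55 and 12.55 at 30 h. The 3 h arrays all lay below, and the 30 h arrays all above, the 0 h arrays. Ermap fell by 0.25 at 3 h (SE 0.048, adjusted p = 0.00121), stood 0.12 above 0 h at 7 h, which was not called (adjusted p = 0.0715), and rose by 0.64 at 30 h, or 1.56-fold (adjusted p = 5.42e-09). With control scaling the 3 h change was -0.15 and was not called (adjusted p = 0.817). Gains of 0.26 and 0.18 over the last 2 steps were called in the fit of all arrays. Neither was called with only the arrays of the step fitted (adjusted p = 0.0579 and 0.0885) or with control scaling.

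Aqp1 codes for the Colton antigen, the main water channel of red cells. Its probe set, 1416203_at, lay between 2.62 and 3.35 on all 18 arrays, above the 40th percentile on 4 of them and above the median on 0. No comparison of Aqp1 was called, and the change at 30 h was -0.09 (SE 0.16, adjusted p = 0.607). At a signal this low the array says little about change. The level is that of a probe set near the low end in every group.

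Slc14a1 codes for the Kidd antigen, the urea transporter of red cells, and was the only one of the 9 called lower at 21 and 30 h. Its brighter probe set, 1428114_at, read 6.39, 5.67 and 6.16 at 0 h, 6.05, 5.87 and 6.02 at 14 h, 4.66, 5.46 and 5.06 at 21 h, and 2.89, 3.71 and 3.87 at 30 h. Up to 14 h the arrays overlapped those of 0 h, and at 21 and 30 h they lay below all of them. It fell by 1.01 at 21 h (SE 0.24, adjusted p = 0.00162) and by 2.58 at 30 h, or 5.98-fold (adjusted p = 6.83e-08). Since the 30 h mean, 3.49 ± 0.53, lay near the 40th percentile, the fold is uncertain. The dimmer probe set, 1448640_at, was not called at 21 h (-0.37, adjusted p = 0.0837) and fell by 1.13 at 30 h (adjusted p = 3.23e-05), from 4.65, 4.93 and 4.54 to 3.85, 3.43 and 3.45.

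Between neighbouring times the calls of the 9 genes shifted from one set to another. From 3 to 7 h, Rhd, Icam4, Gypc, Kel and Ermap rose (5, background 9.8%; 0 fell, 5.14%), and from 7 to 14 h Rhd, Icam4, Gypc and Kel rose (4, background 11.5%; 0 fell, 10.8%). From 14 to 21 h, Gypc, Kel, Xk and Ermap rose (4, background 15.7%) and Slc14a1 fell (1, background 17.5%). Xk rose on its brighter probe set only, and its other probe set changed by -0.60 over that step. From 21 to 30 h, Gypc and Ermap rose (2, background 18%) while Icam4 and Slc14a1 fell (2, background 22.5%). With control scaling, no gene (0) was called higher from 3 to 7 h, from 14 to 21 h or from 21 to 30 h (backgrounds 0.998%, 0.959% and 13.2%). All 4 rises from 7 to 14 h were called (background 10.3%), and Slc14a1 alone was called lower over the last step (background 5.92%). The comparisons share arrays, those with 0 h above all, so they are not independent.

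A test of any change over the 6 times (limma F test) called 8 of the 9 genes, all but Aqp1 (adjusted p = 0.434), against 74.3% of tested genes. Rhag was the nearest to the threshold (adjusted p = 0.0377). The count was 7, without Rhag, with no filter on low values and when any of 0 h replicate 1, 0 h replicate 2, 3 h replicate 2, 3 h replicate 3 or 30 h replicate 3 was left out.

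Genes of the membrane complexes that hold these antigens were then counted at 30 h, where 36.6% of all tested genes were called higher and 33% lower. Of 7 ankyrin complex partners 5 were measured, and 4 rose by 30 h with 0 falls: the anion exchanger Slc4a1 (6.08), the spectrin gene Sptb (3.47), the ankyrin gene Ank1 (1.78) and Cd47 (0.59), a signal against engulfment. Epb42 was not called (0.23, adjusted p = 0.201), with means of 3.42 at 0 h and 3.65 at 30 h, near the low end. Of 9 junctional partners 8 were measured, and 6 rose with 0 falls, led by Dmtn (6.73), Add2 (2.002), Mpp1 (1.71) and Add1 (1.67). Slc2a1, the glucose transporter, had a change of -0.03 and Tmod1 of 0.13. The medians of the measured partners were 1.78 and 1.48, against 0.09 for all tested genes. Slc4a1 stood at -1.25 at 3 h and at 0.14 at 7 h.

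Of 21 other carriers of blood group antigens, 8 rose and 8 fell by 30 h, with a median of -0.03. Both shares are near those of all tested genes, 36.6% higher and 33% lower. Acetylcholinesterase, Ache, the Cartwright antigen, rose from 5.38, 5.52 and 5.65 at 0 h to 10.20, 10.10 and 10.30 at 30 h, a gain of 4.68 (SE 0.094, adjusted p = 1.02e-15), larger than that of any of the 9 genes. Slc44a2 rose by 2.13 and Art4, the Dombrock antigen, by 1.88, from 7.31, 7.35 and 7.29 to 9.26, 9.13 and 9.21. Cd44, the Indian antigen and a hyaluronan receptor, changed by -2.71. Of 8 erythroid regulators 6 rose and 2 fell, among them Gata2 (-4.10), Zfpm1 (1.81), Gata1 (0.87) and Nfe2 (0.82). The line lacks its own functional Gata1 and carries a GATA1 fusion. Which of these the Gata1 probe set reads was not analysed here. Of 9 glycosyltransferases that build carbohydrate antigens, 8 were on the array and 2 passed the filter, of which B4galnt2 fell by 0.77 and Gcnt2 was not called (0.26, adjusted p = 0.196).

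**Figure D4:**
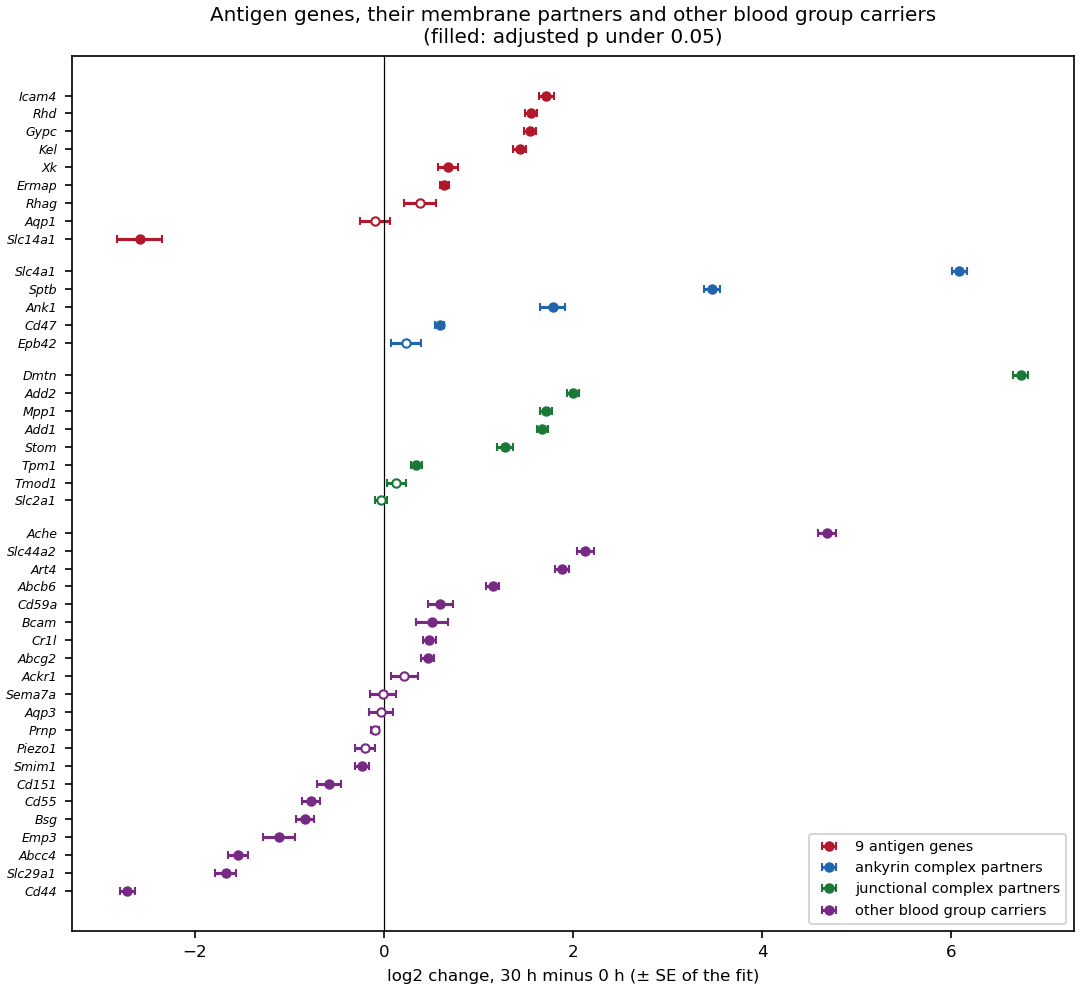
Log2 change from 0 to 30 h (horizontal axis, with the SE of the fit) of the 9 antigen genes, of ankyrin and junctional complex partners and of other blood group carriers (vertical axis, 1 gene a row). Filled points passed an adjusted p of 0.05. Partners lie mostly to the right, up to 6.73 for Dmtn, and other carriers on both sides of 0.

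The genes most like each antigen gene were ranked by Pearson's r over the 18 arrays among 3396 other genes whose time means ranged over at least 1 log2 unit. The course of Icam4, highest at 14 h, was most like those of Nxpe2 (r = 0.99), Noct (0.99) and Apobec3 (0.99). Rhd came closest to Tulp2 (0.99), Ftsj1 (0.99) and Ccdc97 (0.99). Kel came closest to Abhd16a (0.99), Csf2rb2 (0.99) and Ptdss2 (0.99), and 148 genes had an r above 0.95 with it. Gypc had the most close matches of the 9, with 377 genes above 0.95, led by Natd1, Ctsb and the heme-regulated kinase gene Eif2ak1 (0.9965, 0.9958 and 0.9949). Ermap came closest to Fads3 (0.99), Ctdsp2 (0.98) and Pdk2 (0.98). Xk on its brighter probe set had 1 gene above 0.95, Cyb561d1 (0.97), followed by Myo9a (0.94) and Cnbd2 (0.93). Slc14a1 came closest to the falling genes Wrnip1, Rrp9 and Hmgb3 (0.97 each). Rhag had no close match: its highest values were 0.68 (Cryba2), 0.61 (Chst11) and 0.60 (Dmxl1). Its time means ranged over 0.66, beside an SD of up to 0.40 within a time, which limits any r. Those of Aqp1, 0.59 (Mylip), 0.51 (Cd36) and 0.50 (Mei4), rest on a signal near the low end.

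Markers of erythroid cells were present throughout, and those of other lineages in part. All 6 measured erythroid markers lay above the 40th percentile on every array, and their summed level (log2 of the summed linear values) rose from 13.36 to 13.40 at 0 h to 14.63 to 14.66 at 30 h. Gata1 is among them, and its probe set may read the introduced fusion. Of mast cell and basophil markers, 6 of 7 lay above that percentile at 0 h and 3 at 30 h, and their sum went from 8.69 to 8.995 down to 5.98 to 6.10. Megakaryocyte markers, 4 of 6 above it at both times, went from 8.73 to 8.85 down to 7.56 to 7.69. They did not move alike: Gp5 and Pf4 changed by -3.99 and -2.34, Gp9 rose by 0.66, and Itga2b was not called (-0.20). Endothelial markers, of a cell type rich in Aqp1, had 2 of 6 and 1 of 6 above it, with sums of 5.62 to 5.72 and 5.63 to 5.79. Macrophage and granulocyte markers (6.15 to 6.59 and 6.12 to 6.31) and lymphoid markers (5.90 to 5.96 and 5.96 to 6.14) had sums that overlapped or nearly met. Single genes in these lists did change by 30 h. Csf1r and S100a9 were called higher (0.64 and 0.56) and Cd68 lower (-0.79). Cd4 and Cd8a were called higher (0.44 and 0.51), and Pax5 and Ighm were not called. The genes that rose lay at low means, from 3.44 to 4.12. The gap between 3' and 5' control probe sets, a sign of RNA length, widened over the course, from 1.89 to 2.20 for Actb, 1.13 to 1.52 for Gapdh and 1.79 to 2.41 for Tfrc. The part of these values in the changes of the 9 genes was not tested, and in bulk RNA fewer cells of a type and less RNA per cell cannot be told apart.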

How the data were processed

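The deposited table holds log2 values made by the authors, with 45101 probe sets on each of the 18 arrays. Their range (highest 14.4) shows the log2 scale, and array medians of 4.04 to 4.09 show a common scale. The sources used here do not give the probe summary, background or scaling methods. Scaling to a common middle makes each change relative to it. Of the probe sets, 34958 have 1 annotated gene, 932 several and 9211 none.

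Genes entered the test when 3 or more arrays read them above the 40th percentile of that array: 12720 genes, the 9 described here included. All 18 arrays entered 1 fit in limma 3.58.1 (R 4.3.3), a mean per time and 12 residual degrees of freedom. Tests were two-sided, over 9 comparisons and 1 F test, with Benjamini-Hochberg adjustment over all tested genes. The code was tested on simulated data. The number of arrays, n = 3 a time, limits precision. The labels call arrays of a time biological replicates without naming separate cultures, so p-values may in part measure technical spread. No arrays held identical values (0 pairs). Exact permutation tests used scipy 1.17.1.

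The genes, lists and motifs were chosen with earlier results of these data known. From each partner list, the 4 called genes with the largest change at 30 h were named, and genes named as not called, as well as Slc4a1 at earlier times, were chosen after their values were seen. Symbols and gene identifiers of all 9 genes matched the RefSeq table (GRCm38.p6). Alternatives were other scalings, filters, probe set rules, variance models and fits, a replicate block, and fits without single arrays. The data had been seen when a further alternative was added, the other probe sets of Xk and Slc14a1.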

Additional observations from a re-analysis of the deposited data

How the results depend on the processing

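Of 1305 recomputed changes of single genes, 1205 kept their direction and their side of the threshold. The filters, the variance model, the replicate block and fits of only the arrays compared leave the change itself as it was. So do the probe set rules for the 7 genes with 1 probe set. In those cases only the call could differ, so a kept direction there is no test. Another 38 of the 1305 changed sign without being called in either fit, among them Rhd from 14 to 21 h (-0.14) and from 21 to 30 h (0.025) with control scaling. In addition, 34 calls were lost, 23 were gained, and 5 changes called in at least 1 of the fits reversed: Kel from 14 to 21 h with control scaling (-0.0088) and Xk with the mean of its probe sets at 21 h versus 0 h (-0.16) or on its other probe set (-0.85 at 21 h, -0.41 at 30 h and -0.60 from 14 to 21 h). The cause of the other lost or gained calls was not tested. Control scaling shifted the median of all genes by up to 0.28 (7 to 14 h) and spreads arrays of a time further apart. It gave 0 lower genes at 3 h (background 2.24%) and 3 higher at 7 h (background 4.31%). It gave 0 higher at each of 3 to 7 h, 14 to 21 h and 21 to 30 h (backgrounds 0.998%, 0.959% and 13.2%). Over the last step it gave 1 lower (background 5.92%). A 2-fold minimum left 1, 2 and 3 higher genes at 3, 7 and 14 h, 0 lower at 3 h, 0 higher for each step between neighbouring times, 0 lower from 14 to 21 h and 1 lower from 21 to 30 h. Fitting only the arrays compared gave 2 lower at 3 h, 2 higher from 14 to 21 h and 0 higher from 21 to 30 h. The 60th percentile filter gave 2 lower at 3 h, and the mean of probe sets 1 lower from 7 to 14 h. Leaving out single arrays gave 0 to 1 lower at 7 h versus 0 h. The share of all tested genes called was not computed for these restricted fits, the filter, the mean of probe sets or the replicate block. It was also not computed for lower genes under the 2-fold minimum. Whether all genes lost or gained calls alike there was not tested. The replicate block lost only the call of Kel from 14 to 21 h (adjusted p = 0.0550), for 3 higher in place of 4. Deviations from the time means gave no sign that the shared numbers pair the arrays. The 45 same-numbered pairs correlated at -0.17 to 0.19 (mean 0.012), and the 90 different-numbered pairs at -0.32 to 0.28 (mean -0.0061). Whether arrays share a culture was not tested.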

Other observations

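Neighbours of the antigen genes in the RefSeq gene table, the nearest gene on each side with a probe set, moved in several ways. Icam4 lies between Icam1 and Icam5, adhesion molecules of other cells. Icam1 read 7.16, 7.07 and 7.05 at 0 h and 6.88, 6.503 and 6.67 at 30 h, a fall of 0.41 (limma adjusted p = 0.00145), and its r with Icam4 over the 18 arrays was 0.04. At 7 h Icam1 stood 0.54 above 0 h. Icam5, dim throughout, read 4.65, 4.09 and 4.73 at 0 h and 5.54, 5.32 and 5.60 at 30 h, a rise of 0.9995 (adjusted p = 0.000156). Its r with Icam4 was 0.75. The change of Icam4 exceeded that of Icam1 by 2.12 and that of Icam5 by 0.72 (exact permutation p = 0.10 for each, the smallest possible). Beside Rhd, Rsrp1 rose by 0.49 and Maco1 fell by 0.27. Beside Ermap, Zfp691 rose by 0.84 with r = 0.94, and Svbp was not called (0.09). The neighbours of Rhag, Gypc and Aqp1 were not called or lay below the filter. Both neighbours of Kel and both of Xk lay below the filter. Beside Slc14a1, Epg5 rose by 1.22 while Slc14a1 fell, and the related urea transporter gene Slc14a2 was not called (0.19, at a mean of 3.13 at 0 h).

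Relatives of the antigen genes were measured as well. Of 22 listed, 20 were on the array and 15 were tested, and 4 rose and 5 fell by 30 h, where 36.6% of all tested genes were called higher and 33% lower. Btn1a1, a butyrophilin related to Ermap, read 5.83, 5.95 and 6.08 at 0 h and 11.70, 11.61 and 11.65 at 30 h, and rose by 5.70. Aqp8, a water channel, rose by 3.71 from a mean of 3.74 near the low end, while Aqp1 was not called. Xkr5 and Xkr8, relatives of Xk, changed by -3.89 and -2.08, and Xkr8 went from 6.57, 6.73 and 6.64 to 4.71, 4.18 and 4.81.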
